A study of Mus musculus with 9 samples.

Results

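The core pluripotency transcription factors are nuclear proteins that act on gene transcription and keep embryonic stem cells and induced pluripotent stem (iPS) cells in the undifferentiated state. The 10 genes described here are Pou5f1, Sox2, Nanog, Sall4, Zfp42, Esrrb, Nr5a2, Nr0b1, Tfcp2l1 and Prdm14, chosen by name out of 19937 genes measured. Each was represented on the array by a single row that maps to that gene alone, so all 10 were measured and none was lost to a filter.

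Expression was measured on Affymetrix whole-transcript mouse arrays, 1 array per sample, in 3 groups of 3 arrays. The first group was fibroblasts at passage 4, taken from mice that were themselves derived from TSKM iPS cells; TSKM stands for Tet1, Sox2, Klf4 and c-Myc, the factors switched on by doxycycline. The second, TSKM-3D, was the same kind of cells at passage 4 after 3 days with doxycycline, called day 3 here, and stem cell medium with LIF replaced feeder medium when doxycycline was added. The third was an iPS cell line made in this system, at passages 10 to 15. All 3 groups have the background OG2-GFP/Rosa26-M2rtTA, that is, a green fluorescent reporter under Oct4 regulatory DNA and the doxycycline-dependent transactivator expressed from the Rosa26 locus. The iPS cells grew on mitomycin C treated mouse embryonic fibroblasts, which were removed before collection by a short plating step. Pou5f1, which encodes Oct4, was not among the introduced factors, whereas Sox2 was, and an array row does not separate an introduced copy from the cell's own transcript. The sources name a single iPS line, and they leave unsaid whether arrays within a group represent independent cultures; the p-values rest on array-to-array spread that could be technical.

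Oct4 and Sox2 bind side by side on a composite DNA element and activate their own genes and many others, Nanog among them. Nanog, Sall4 and the orphan nuclear receptors Esrrb and Nr5a2 bind many of the same enhancers. Tfcp2l1, Prdm14, Nr0b1 and Zfp42 are more closely tied to the naive state of mouse embryonic stem cells than to pluripotency in general. In fibroblasts these genes are normally silent.

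The promoters of 4 of these genes are shown so that DNA words bound by such factors can be looked for in them. All 10 genes rose between day 3 and iPS cells, so that rise does not set the 4 apart. The RefSeq promoter table (GRCm38.p6) held 8 of the 10 genes, and the window was the 250 bases before each gene's most upstream start. Nanog lies at chr6:122707239-122707488 (plus strand), Sox2 at chr3:34649745-34649994 (plus strand), Zfp42 at chr8:43307010-43307259 (minus strand) and Pou5f1 at chr17:35505782-35506031 (plus strand). Each is written 5′ to 3′ along its gene. Capitals mark the octamer core TTTGCAT, the SOX core ACAATG and the ESRRB and NR5A2 word TCAAGGNCA, each searched on both strands.
Nanog: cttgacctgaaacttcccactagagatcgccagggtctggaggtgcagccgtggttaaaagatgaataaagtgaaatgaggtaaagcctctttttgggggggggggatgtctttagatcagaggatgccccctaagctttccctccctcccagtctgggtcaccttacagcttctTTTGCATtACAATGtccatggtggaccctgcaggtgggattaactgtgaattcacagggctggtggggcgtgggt
Sox2: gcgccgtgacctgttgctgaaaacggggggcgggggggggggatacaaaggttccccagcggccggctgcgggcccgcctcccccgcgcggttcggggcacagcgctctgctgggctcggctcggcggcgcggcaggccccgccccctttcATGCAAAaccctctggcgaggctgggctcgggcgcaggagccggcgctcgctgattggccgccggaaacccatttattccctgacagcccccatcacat
Zfp42: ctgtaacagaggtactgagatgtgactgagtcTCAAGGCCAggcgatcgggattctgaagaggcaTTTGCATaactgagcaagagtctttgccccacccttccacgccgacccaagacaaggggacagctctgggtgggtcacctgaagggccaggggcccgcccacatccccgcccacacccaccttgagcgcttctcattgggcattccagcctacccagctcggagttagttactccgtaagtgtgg
Pou5f1: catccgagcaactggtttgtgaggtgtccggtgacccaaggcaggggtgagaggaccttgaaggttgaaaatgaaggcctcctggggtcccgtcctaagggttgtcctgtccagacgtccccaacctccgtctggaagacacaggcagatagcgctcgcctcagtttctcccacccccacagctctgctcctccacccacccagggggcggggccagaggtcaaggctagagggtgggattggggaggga

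The octamer core was found in 3 of the 8 windows, those of Nanog, Sox2 and Zfp42, against 4.07% of 27025 promoter windows of the same length. In the Nanog window it began 75 bases before the start and was followed 1 base later by the SOX core. That joined word, TTTGCATNACAATG, which overlaps both cores by construction, occurred in 1 of the 27025 windows, that of Nanog. The SOX core by itself was found in 1 of the 8 windows, again that of Nanog, and in 10.9% of all windows. In the Sox2 window the octamer core lay on the opposite strand, as ATGCAAA, from 99 bases before the start. In the Zfp42 window the octamer core began 185 bases before the gene's start. The ESRRB and NR5A2 word began 218 bases before that same start, and it was present in 1.37% of all windows. The KLF word GGGNGTGG was found in the windows of Nanog, Pou5f1, Tfcp2l1 and Zfp42 and in 15.9% of all windows. The TFCP2L1 word CCAGNNNNNNCCAG was found in 0 of the 8 and in 2.71% of all windows. A match of letters is a description of the sequence and not a measured binding site. Enhancers further from the start were not searched.

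At day 3, 2 of the 10 factors were called higher than in fibroblasts, Pou5f1 and Sox2, and 0 were called lower (7.58% of all genes were). A gene was called when limma's Benjamini-Hochberg adjusted p over all genes was under 0.05 and the change was at least 2-fold, and 3.25% of all genes were called higher in this comparison by that rule. The median change of the 10 was 0.25 on the log2 scale, beside 0.05 over all genes. In iPS cells all 10 were called higher than at day 3, where 6.48% of all genes were called higher and 8.57% lower, with a median change of 4.84 beside -0.01 over all genes. All 10 were also called higher in iPS cells than in fibroblasts (7.63% of all genes), with a median of 5.80 beside 0.05. The arrays of all 10 also lay wholly above those of the other group in both of these comparisons, as they did for 24.2% of all genes against day 3 and 33.1% against fibroblasts.

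**Figure D1:**
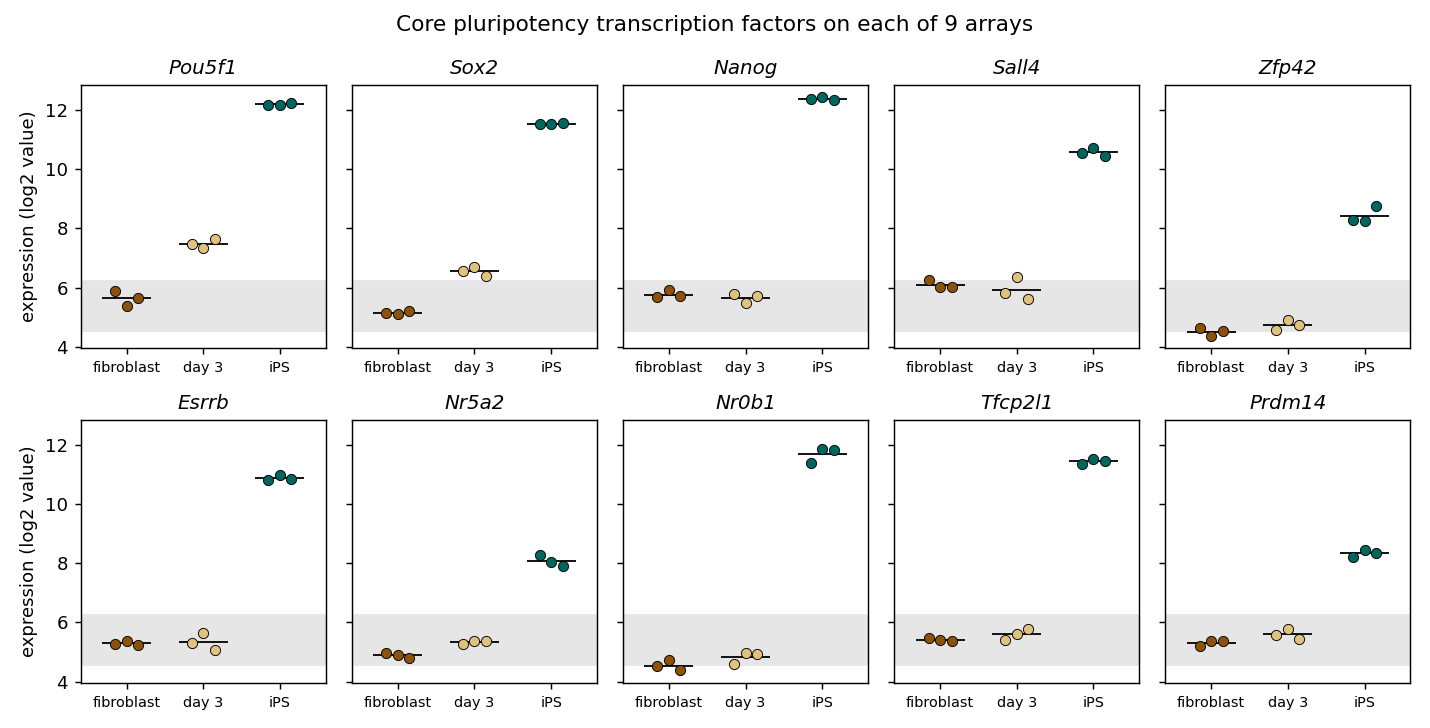
Expression of each factor (y axis, log2 value) on the 3 fibroblast, 3 day-3 and 3 iPS arrays; points are arrays, horizontal lines are group means, and the grey band spans the lowest array quartile to the highest array median over all rows. Pou5f1 and Sox2 lie above the band at day 3, 8 factors stay within or near it, and all 10 lie above it on the iPS arrays.

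Pou5f1 read 5.89, 5.37 and 5.65 on the fibroblast arrays, 7.47, 7.34 and 7.63 at day 3, and 12.15, 12.17 and 12.23 on the iPS arrays (log2 values). The groups did not overlap at either step, and the lowest day-3 array stood 1.46 above the highest fibroblast array. The rise at day 3 was 3.59-fold, or 1.85 ± 0.12 in log2 (SE, 3 arrays in each group; adjusted p = 2.35e-07 by limma with Benjamini-Hochberg adjustment). Pou5f1 was not among the introduced factors that doxycycline switches on in these cells, and the source of this rise was not tested. In these bulk samples a few cells with much Pou5f1 RNA and many cells with little cannot be told apart. The second step was larger, 26.1-fold (4.71 ± 0.12; adjusted p = 9.6e-11), and the iPS arrays spread by an SD of only 0.04.

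Sox2, the introduced HMG-box partner of Oct4, read 5.13, 5.10 and 5.22 on fibroblast arrays, 6.56, 6.69 and 6.38 after induction, and 11.51, 11.52 and 11.54 on iPS arrays. Every day-3 array lay above every fibroblast array, with a gap of 1.17. The day-3 rise was 2.63-fold (limma, Benjamini-Hochberg adjusted p = 1.36e-07) and the second rise 31.5-fold (4.98 ± 0.09; adjusted p = 8.68e-12). Its day-3 level, read with doxycycline present, stood well under that of the iPS line, for which no time with doxycycline is listed. The other introduced factors did not move alike at this time. From fibroblasts to day 3 Myc was higher by 1.60 in log2 value, and Klf4 was not called (0.04 ± 0.09). Tet1 fell by 1.13 and was called lower. The Tet1 reading was thus lower although Tet1 is among the introduced factors, and the reason was not tested.

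Nanog, the homeodomain factor that stabilises the pluripotent state, was not called at day 3. It read 5.67, 5.91 and 5.71 in fibroblasts and 5.77, 5.49 and 5.70 at day 3, overlapping groups, and then 12.38, 12.44 and 12.32 in iPS cells. The 95% interval of the day-3 difference ran from -0.32 to 0.11, so a doubling was outside it. The later rise was 106-fold (6.72 ± 0.10; limma, Benjamini-Hochberg adjusted p = 2.89e-12), the 4th largest of 19937 genes in that comparison.

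Sall4, a zinc finger factor that acts with Oct4, was the least even of the 10 at day 3. It read 6.25, 6.03 and 6.02 in fibroblasts and 5.80, 6.34 and 5.62 at day 3, where its SD was 0.38 against 0.13 in fibroblasts. The groups overlapped and the difference was -0.18 (95% interval -0.53 to 0.17). On the iPS arrays it read 10.55, 10.72 and 10.46, a rise of 25.2-fold over day 3 (limma, Benjamini-Hochberg adjusted p = 7.36e-10).

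Zfp42, also known as Rex1 and used as a marker of undifferentiated stem cells, read 4.62, 4.36 and 4.55 in fibroblasts. At day 3 it read 4.56, 4.90 and 4.75, and on iPS arrays 8.29, 8.24 and 8.77. The first groups overlapped, with a difference of 0.23 (95% interval -0.09 to 0.54), and the iPS arrays were all higher. Its iPS arrays were the most spread of the 10, with an SD of 0.29, and the rise over day 3 was 13.0-fold (3.70 ± 0.14).

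Of the 3 nuclear receptor genes, Esrrb, a Nanog target that can replace Nanog in stem cells, differed least at day 3. Its fibroblast arrays read 5.28, 5.37 and 5.24, its day-3 arrays 5.31, 5.63 and 5.05, and its iPS arrays 10.80, 10.98 and 10.84. The day-3 arrays lay on both sides of the fibroblast arrays (difference 0.03, 95% interval -0.24 to 0.31), and the later rise was 46.7-fold. Nr0b1, which encodes Dax1, a receptor without the usual DNA-binding domain, read 4.52, 4.73 and 4.37, then 4.58, 4.95 and 4.93, then 11.38, 11.85 and 11.83. Its groups overlapped at the first step (difference 0.28, 95% interval -0.05 to 0.60). Its rise of 117-fold over day 3 was the largest of the 10, and the 3rd largest of all genes. The first iPS array was the lowest of the 3 for this gene.

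Nr5a2, the receptor also called Lrh1, which binds the Pou5f1 promoter and can stand in for introduced Oct4 in reprogramming, showed a small difference at day 3. It read 4.95, 4.90 and 4.81 in fibroblasts and 5.27, 5.38 and 5.38 at day 3, with no overlap between the groups. The change of 0.46 ± 0.09 (1.37-fold; limma, Benjamini-Hochberg adjusted p = 0.00183) passed the adjusted p but not the 2-fold line. Groups did not overlap in the upward direction for 24.8% of all genes, and 19.2% of genes were higher by adjusted p alone, so a shift of this kind was common. In iPS cells Nr5a2 read 8.26, 8.05 and 7.92, only 6.63-fold above day 3 (2.73 ± 0.09), the smallest second step of the 10.

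Prdm14, a PR-domain factor that restrains FGF signalling and DNA methylation in naive cells, was similar. It read 5.20, 5.35 and 5.36, then 5.58, 5.77 and 5.43, then 8.20, 8.44 and 8.35. The day-3 arrays lay above the fibroblast arrays by a gap of 0.07, with a change of 0.29 ± 0.10 (limma, Benjamini-Hochberg adjusted p = 0.0377). That p did not stay under 0.05 with array medians set equal (adjusted p = 0.0601) or after quantile normalization (adjusted p = 0.0763), nor with trend and robust moderation (adjusted p = 0.0521). It was above 0.05 as well without fibroblast array 1 (adjusted p = 0.14), 2 (0.0659) or 3 (0.0633), day-3 array 1 (0.077) or 2 (0.117), or iPS array 3 (0.0516). The rise from day 3 to iPS was 6.66-fold.

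Tfcp2l1, a grainyhead-like factor that acts downstream of LIF and STAT3, had fibroblast readings of 5.46, 5.40 and 5.38. Its day-3 readings were 5.41, 5.59 and 5.77, and its iPS readings 11.35, 11.52 and 11.44. The first groups overlapped (difference 0.18, 95% interval -0.03 to 0.39). The later rise was 57.6-fold (5.85 ± 0.10; limma, Benjamini-Hochberg adjusted p = 7.63e-12).

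Most of these starting readings were dim, so the folds from them are uncertain in size. Over all rows, fibroblast arrays had medians of 6.04 to 6.05 and lower quartiles of 4.54 to 4.55. Day-3 arrays had medians of 6.01 to 6.20 and lower quartiles of 4.61 to 4.73. The quartile itself was thus slightly higher at day 3, in the same direction as the small differences of Nr5a2, Nr0b1, Prdm14, Zfp42 and Tfcp2l1. Its part in them was not tested beyond the quantile normalization, which left Nr5a2 at 0.35 (adjusted p = 0.0143).

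Whether the steps differed in size was tested within the same fit, as the second step minus the first. The second step was larger for all 10 factors (adjusted p under 0.05 for each; 23.3% of all genes passed in this direction and 42.7% in either). The excess was smallest for Nr5a2 at 2.27 ± 0.16 (limma, Benjamini-Hochberg adjusted p = 5.44e-07) and Prdm14 at 2.44, and for Pou5f1 it was 2.86. For Nanog it was 6.83 and for Nr0b1 6.59. Pou5f1 and Sox2, called at day 3, thus had the larger second step as well, like all the other factors. The first step spans 3 days with doxycycline, the second the change to an iPS line at passages 10 to 15.

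**Figure D2:**
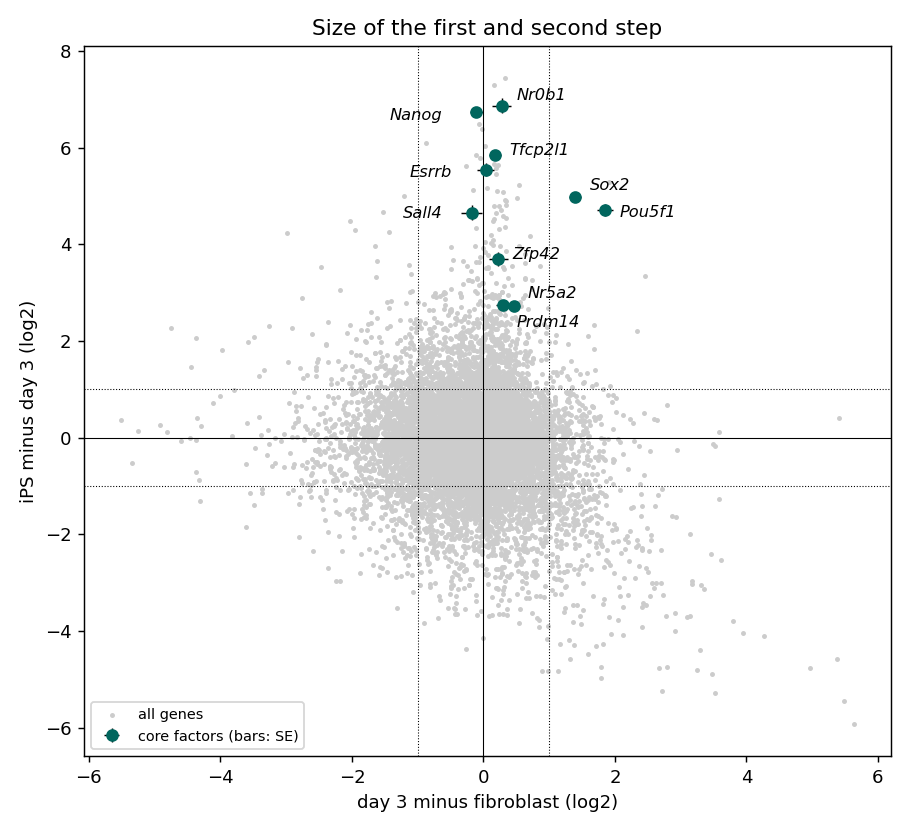
Change from fibroblast to day 3 (x axis, log2) against change from day 3 to iPS (y axis, log2) for the 10 factors with SE bars, over all 19937 genes in grey; dotted lines mark 2-fold. Pou5f1 and Sox2 lie to the right of the line at 1.85 and 1.39, and the other 8 lie between -0.18 and 0.46.

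Expressed as a share of the whole fibroblast to iPS distance in log2, the day-3 arrays stood at 28.2% ± 2.17 (SD, n = 3) for Pou5f1 and 21.9% ± 2.38 for Sox2. Next came Nr5a2 at 14.4% ± 2.09 and Prdm14 at 9.63% ± 5.68. Zfp42, Nr0b1, Tfcp2l1 and Esrrb stood between 0.616% and 5.79%, and Nanog and Sall4 at -1.59% ± 2.18 and -4.03% ± 8.47. Among the last 6, the arrays of each gene crossed those of its neighbours in this order, so neighbours do not differ beyond their spread. Pou5f1 and Sox2 did not overlap with each other or with the rest. These shares describe log2 values only.

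**Figure D3:**
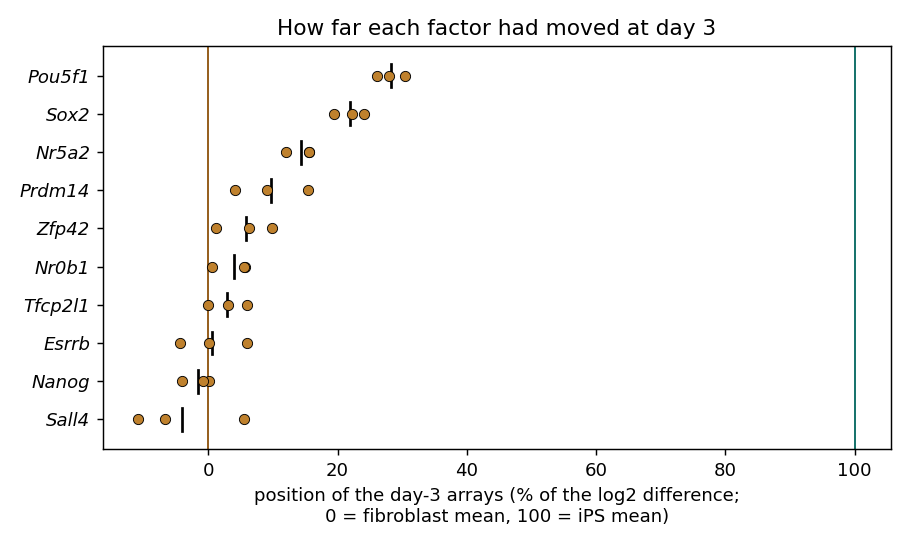
Where the day-3 arrays fell on the log2 path from the fibroblast mean, at 0%, to the iPS mean at the far end (x axis, percent), by factor (y axis); points are the 3 arrays and black bars their mean. Pou5f1 arrays lie from 26.1% to 30.4% and Sox2 arrays from 19.4% to 24.1%, while the Sall4 arrays run from -10.8% to 5.46%.

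The second day-3 array was above its group mean for 8 of the 10 factors, by a median of 0.14, beside 0.03 over all genes on that array. The Pou5f1 and Nanog rows did not share this, since both were lowest on that array. The median of that array over all rows, 6.20, was the highest of the 3 as well. Among iPS arrays the first stood above its group mean for 2 of the 10 factors.

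Measured as the Euclidean distance over the 9 arrays after each gene's fibroblast mean was subtracted, the closest pairs among the 10 were Nr5a2 with Prdm14 at 0.65, Esrrb with Tfcp2l1 at 1.00 and Pou5f1 with Sox2 at 1.00. The most distant were Nr0b1 and Prdm14 at 7.15. Among 18638 other named genes, the nearest to Pou5f1 were Bex1 at 1.48 and the glucose transporter gene Slc2a3 at 1.69, followed by Utf1, Rimklb and Dppa2. The same 5 genes in another order were nearest to Sox2, led by Utf1 at 1.84. Bex1 changed by 1.91 and then 5.29, and Slc2a3 by 2.46 and then 3.35. Nearest to Nanog were Fbxo15, an embryonic stem cell gene often used as a reprogramming reporter, at 0.56, then Dppa2 at 1.44, Calcoco2 at 1.62, and Zfp980 and the peptide hormone gene Apela, both at 1.63. Fbxo15 differed by -0.07 at the first step and rose by 6.48 at the second.

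The wider network was read from lists of related genes. Of 29 other pluripotency transcription factors measured, 1 was higher and 2 lower at day 3, near the 3.25% and 7.58% of all genes. In iPS cells 22 were higher and 0 lower than at day 3, beside 6.48% and 8.57% of all genes. The median changes were -0.08 and 1.56, beside 0.05 and -0.01 over all genes. Klf5, a naive-state factor, was higher at day 3 by 1.81 ± 0.07 and again in iPS cells by 1.02. Nacc1, which encodes the Nanog partner Nac1, fell by 1.87 at day 3 and then rose by 1.40 in iPS cells. Tcf7l1, a repressor of stem cell genes, fell by 1.67 at day 3 and then rose by 1.17. The largest rises from day 3 to iPS were in Dppa2 at 5.64, Utf1 at 5.22 and Dppa4 at 3.96 (the highest Benjamini-Hochberg adjusted p of these from limma was 5.89e-11).

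Of 28 genes listed as targets of the core factors, 1 was higher and 2 lower at day 3, again near the shares over all genes (3.25% and 7.58%). In iPS cells 25 were higher and 0 lower than at day 3, where 6.48% of all genes were higher and 8.57% lower. Their median changes were 0.13 and 3.37. Slc2a3 was the gene higher at day 3, and the adhesion gene Jam2 and Tet1 were the genes lower, by -1.53 and -1.13. The largest rises in iPS cells were in Tdgf1, the Nodal co-receptor gene Cripto, at 7.43, Dppa5a at 7.30 and Fbxo15 at 6.48. The list follows what is known of stem cells and was drawn up with results of these data known, so it is not independent evidence of a direction.

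Paralogs of the 10 factors are genes of the same protein families. Of 34 measured, 2 were higher and 1 lower at day 3, when 3.25% of all genes were higher and 7.58% lower. In iPS cells 4 were higher and 2 lower than at day 3, beside 6.48% and 8.57% of all genes. With so few genes these counts are near the shares over all genes, and the median changes were 0.16 and 0.09. Within the POU family, Pou2f3 rose by 1.43 ± 0.07 in iPS cells (limma, Benjamini-Hochberg adjusted p = 1.37e-08), and Pou3f1, a factor of the primed state, differed by 0.02. Within the SOX family, Sox21 was highest at day 3: its readings were 5.88, 5.88 and 5.91 in fibroblasts, 7.49, 7.67 and 7.60 after induction, and 6.73, 6.77 and 6.62 on iPS arrays. Its day-3 rise was 1.70 ± 0.08 (adjusted p = 1.39e-08). Sox15 rose by 1.26 in iPS cells, Sox9, a cartilage factor, fell by 2.84 at day 3, and Sox4 fell by 2.15 in iPS cells.

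Among the closest relatives of the other factors, Sall1 rose by 1.34 in iPS cells, while Sall2 and Sall3 differed by -0.19 and 0.47. Esrra, the broadly expressed relative of Esrrb, had group means of 7.38, 8.23 and 7.65 in the same order and was not called. Tfcp2 and Ubp1, relatives of Tfcp2l1, differed by -0.57 and 0.20 between day 3 and iPS, whereas the epithelial factor gene Grhl3 rose by 1.35. Nr5a1 and Nr0b2 differed by 0.00 and -0.10, and Yy1, the relative of Zfp42, by -0.29. Prdm1, a germ cell and B cell factor, rose by 1.07 at day 3 and fell by 1.13 afterwards.

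Of 21 factors of rival lineages and of the primed state, 0 were higher and 1 lower at day 3 (3.25% and 7.58% of all genes). In iPS cells 2 were higher and 0 lower than at day 3 (6.48% and 8.57% of all genes), so these counts too are near those of all genes. Gata6, the primitive endoderm factor, fell by 1.37 at day 3 from a mean of 7.57 in fibroblasts. Tfap2c and Eomes, both known from trophoblast, rose by 2.07 and 1.90 in iPS cells. Otx2 and Fgf5, markers of the primed state, differed by 0.77 and -0.99 between day 3 and iPS.

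**Figure D4:**
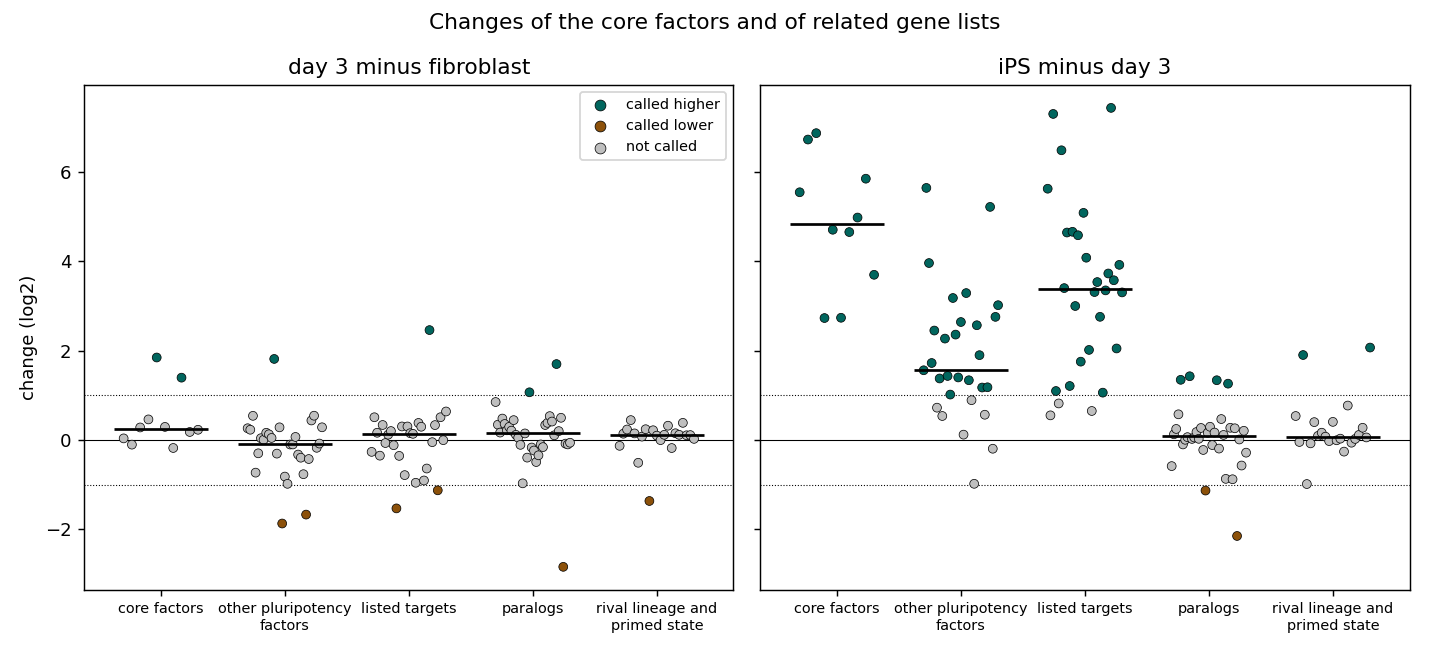
Change in log2 (y axis) of each gene in 5 groups of genes (x axis), from fibroblast to day 3 on the left and from day 3 to iPS on the right; green points were called higher, brown lower, grey not called, black bars are medians and dotted lines 2-fold. On the right the medians are 4.84 for the core factors, 1.56 for other pluripotency factors, 3.37 for listed targets, 0.09 for paralogs and 0.07 for rival factors.

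The labels of the groups were checked with markers that are not among the 10. The mean log2 value of 16 embryonic stem cell markers ranged from 5.33 to 5.43 in fibroblasts, from 5.42 to 5.81 after induction and from 10.2 to 10.3 in iPS cells. That of 21 fibroblast and feeder markers was 11 to 11.1, 9.48 to 9.53 and 8.08 to 8.21. From day 3 to iPS, 14 of these 21 were lower and 1 higher, beside 8.57% and 6.48% of all genes. The 1 higher was Dcn, by 1.45. On the iPS arrays the defining marker Col1a1 still read 11.20 to 11.71 and Col3a1 8.43 to 9.02, whereas Thy1 read 7.79 to 7.97 and Pdgfra 6.41 to 6.62. Col1a1 was not alone in reading high there, since Vim read 11.89 to 12.03 and Col1a2 10.74 to 11.22. The iPS cells had been grown on feeder fibroblasts, which the plating step was to remove, and the part of any remaining feeder RNA in the iPS readings was not tested. One of the fibroblast arrays, replicate 3, carries a cell type label of induced cells, while its title and passage entry are those of fibroblasts. On that array Pou5f1 read 5.65 and Sox2 5.22, within or just above the range of the other fibroblast arrays. The mean of the 21 fibroblast and feeder markers was 11 on it, beside 9.48 to 9.53 on the day-3 arrays. Lum read 9.60 on it, 9.61 and 9.66 on the other fibroblast arrays, and 3.71 to 4.36 at day 3. Osr1 read 11.33 on it, 11.46 and 11.36 on the other fibroblast arrays, and 7.06 at day 3. In these readings replicate 3 was like the other fibroblast arrays and unlike the day-3 arrays. With replicate 3 left out, the same 2 calls were made at day 3. Placed with the day-3 arrays instead, it left 0 of the 10 called there.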

How the data were processed

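The values analysed were log2 expression levels that the authors deposited, with 34760 rows for 9 arrays. How the authors summarised and normalised these log2 values is not given in the sources used here, and they were used as deposited. Gene symbols came from the array platform's annotation: 21640 rows carried 1 symbol, 1321 several and 11799 were not listed there. Where several rows named a gene, the one brightest on average was kept. One model over the 3 groups was fitted in limma 3.58.1 (R 4.3.3) using lmFit and eBayes, without covariates, and p-values were adjusted by Benjamini-Hochberg over 19937 genes. The fit was tested on simulated data with known changes. The alternatives were quantile normalization, equal medians, other fold rules, row means, a filter on dim genes, other moderation, a replicate block, each array left out, and the third fibroblast array placed with day 3. The members and lists were chosen with earlier results of these data known. From each list the 3 largest called rises and falls were named, and any paralog. Otx2, Fgf5 and the introduced factor Klf4 were named as well, although they were not called in the comparison given. Defining markers and a few other fibroblast and feeder markers were also named. Signal over background was not measured, and 3 arrays per group limit the precision. Promoters were read from RefSeq (GRCm38.p6).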

Additional observations from a re-analysis of the deposited data

How the results depend on the processing

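The 10 calls from day 3 to iPS, the 10 from fibroblasts to iPS and the 10 unequal steps kept their count under each alternative run, except that with dim genes left out Zfp42 and Nr5a2 were not tested and 8 of 8 were called. The 2 calls at day 3 were Pou5f1 and Sox2 under each alternative that changed normalization, row choice or moderation. Without a fold requirement 4 factors passed there, all higher, Nr5a2 and Prdm14 being added. By that rule 19.2% of all genes were higher, and 8886 of 19937 passed in either direction, so such a pass was common. With the third fibroblast array placed with the day-3 arrays 0 factors passed. Pou5f1 then differed by 1.40 ± 0.49 and Sox2 by 1.10 ± 0.35 (limma, Benjamini-Hochberg adjusted p = 0.165 for both). Over the leave-one-out fits the number called at day 3 stayed at 2 throughout, and the Pou5f1 change ran from 1.71 to 1.97 and that of Sox2 from 1.32 to 1.47. The groups share replicate numbers, and deviations of same-numbered arrays correlated at -0.098 to 0.062 across genes. Those of different-numbered arrays correlated at -0.132 to 0.13. With 3 arrays per group such values cannot show whether a number marks a shared culture or day. Over all genes, the number called at day 3 was 2159 as reported, 1140 when limma's treat tested against 2-fold, 8886 without a fold requirement, 4738 at 1.5-fold and 0 with that array moved; from day 3 to iPS it was 3001, and 1931, 9088 and 5443 under the first 3 of these, and from fibroblasts to iPS 4283, 10883 without a fold requirement and 7007 at 1.5-fold. Unequal steps numbered 8508, 2532 under treat and 3525 with the array moved. With the replicate block the counts of calls were again 2 at day 3 and 10 in each other comparison. The choice of the row with the lowest mean was not run, since each of the 10 genes had 1 row. Dim fibroblast and day-3 readings limit the size of the folds.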
